A study of Mus musculus with 10 samples.

Results

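Most Prss genes encode secreted or membrane-anchored proteases, or protease-like proteins, of the trypsin fold. The members were taken by symbol alone, as all rows of the deposited gene count tables that begin with Prss followed by a digit. This gave 38 of 23420 gene rows. The tables come from polyA RNA of mouse spermatogenic cells taken at postnatal day 18, with 5 libraries labelled Ino80cKO and 5 labelled Ino80WT. Ino80cKO mice carry a testis-specific deletion of Ino80 made with Stra8-Cre, a recombinase driven in male germ cells, and all mice were of mixed background. The sources used here do not give whether Ino80WT mice carried the Cre, whether animals were pooled, or which part of Ino80 was deleted. The cells came from tubules digested with collagenase and trypsin and were filtered but not sorted, so testicular somatic cells can be present.

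Trypsin-like serine proteases cut proteins after a basic residue with a catalytic triad of histidine, aspartate and serine, and most are made as precursors that need cutting themselves. In the mouse testis a large part of the family is transcribed in germ cells from meiosis onward, and its products reach the acrosome or the sperm surface. Prss37 and Prss55, for instance, are needed in mice for processing of the sperm surface protein ADAM3 and for sperm migration into the oviduct. Other members belong to other tissues: Prss1, Prss2 and Prss3 are digestive trypsins of the pancreas, Prss16 acts in the thymus, Prss34 in mast cells and basophils, and Prss57 in neutrophils. The INO80 complex remodels chromatin by moving nucleosomes with ATP. The comparison asks which of these transcripts differ when it is deleted in germ cells.

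Each library held 16750609 to 23700094 reads counted in genes. Levels are given as CPM, the counts in 1000000 counts of tested genes after TMM scaling. A limit of 3 counts equals 0.117 to 0.189 CPM in a library and covers counting error alone. The gene-level count of Ino80 did not separate the labels, at 94.5 to 97.5 CPM in Ino80cKO libraries and 75.8 to 110 CPM in Ino80WT libraries. Since the deleted part of the gene is not known, that count does not check the labels. Of the list of 25 pachytene spermatocyte markers, 24 were lower in Ino80cKO, and their summed level was 2651 to 3980 CPM in Ino80cKO libraries and 5927 to 9570 CPM in Ino80WT libraries, highest in Ino80WT 3 and lowest in Ino80cKO 3. Of 16 Sertoli cell markers 5 were higher and none lower, with a summed level of 6026 to 8354 CPM in Ino80cKO libraries and 4227 to 6704 CPM in Ino80WT libraries. At an adjusted p below 0.05, 27.6% of all genes tested were lower and 18.3% higher. In bulk RNA, fewer cells of a type and less RNA per cell cannot be told apart. No label ties a library to an animal of its own, and the p-values therefore reflect library-to-library spread, part of which may be technical. All adjusted p-values come from the edgeR quasi-likelihood test, adjusted by Benjamini-Hochberg over 15265 genes, with 5 libraries in each group. Log2 fold changes (Ino80cKO over Ino80WT) carry SE and CPM values carry SD.

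Of the 38 members, 20 were above the count floor at day 18, which asked for about 10 counts in at least 5 libraries. Of these 20, 12 were lower in Ino80cKO, 2 were higher (Prss35 and Prss36) and 6 did not pass the test at an adjusted p below 0.05. Over all genes tested, 27.6% were lower and 18.3% were higher by the same rule, 45.9% in either direction. These were 4220 lower and 2793 higher genes; scaling by library totals alone turned that balance, to 2937 lower and 5484 higher genes, with 10 members lower and 2 higher. The median log2 fold change of the 20 was -0.63, against 0.02 for all genes tested. The floor was met in both groups taken alone by 16 members, of which 11 were lower, 2 higher and 3 did not pass. Taken alone, only Ino80WT met it for Prss58 and Prss16, and only Ino80cKO for Prss53 and Prss8. Prss16, Prss53 and Prss8 each reached the cutoff in 9 libraries, and Prss58 in 5. Of these, only Prss58 depends on 1 group for its presence among the 20. Of the 12 lower members, 8 were lower by at least 2-fold, which 7.72% of all genes tested were. Ino80cKO and Ino80WT libraries did not overlap in CPM for 9 of the 20, 8 of them lower and 1 higher, against 22.0% and 9.96% of all genes tested (32.0% in either direction). Prss58, which met the floor through the group where it is higher, is counted among the 12 lower members. It is also among the 8 lower by at least 2-fold and the 8 lower without overlap.

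**Figure D1:**
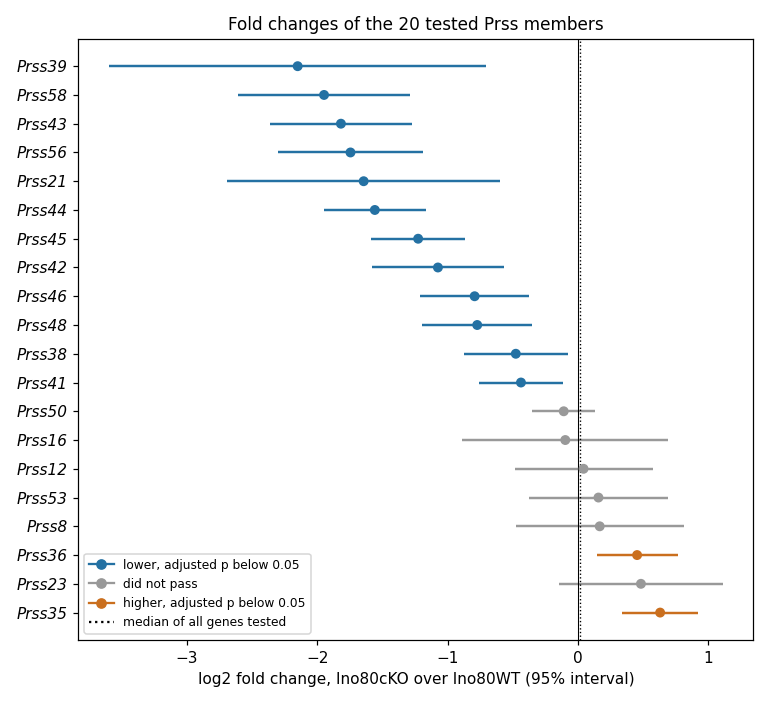
Log2 fold change (Ino80cKO over Ino80WT) of the 20 tested Prss members, ordered by size, with 95% intervals from edgeR's quasi-likelihood fit; the dotted line is the median of all genes tested. Estimates run from -2.15 for Prss39 to 0.63 for Prss35, and Prss39 and Prss21 have the widest intervals.

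The largest group of changed members was a run of 6 genes on chromosome 9 (mm10, 110797248 to 110864629, 67.4 kb, all on the plus strand) with no other gene of the table between them. In order they are Prss42, Prss44, Prss43, Prss45, Prss46 and Prss50. The first 5 are the mouse TESSP genes (testis-specific serine proteases 2 to 6), and Prss42 and Prss43 have been studied in the mouse for germ cell survival through meiosis. All 5 TESSP genes of this run fell in Ino80cKO, and their neighbour Prss50 did not pass the test. None of these 6 genes shares a stretch of 50 bases with a transcript of another gene in GENCODE M21.

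Prss43 had 3.72, 4.01, 2.62, 5.35 and 4.99 CPM in Ino80cKO libraries 1 to 5, against 11.96, 11.7, 24.0, 10.4 and 14.8 CPM in Ino80WT libraries 1 to 5. The highest Ino80cKO library lay below the lowest Ino80WT library, and Ino80WT 3 stood above its group. The log2 fold change was -1.82 ± 0.25 (3.53-fold lower, adjusted p = 0.000175). Prss44 had 9.44, 8.60, 5.58, 10.3 and 9.04 CPM in Ino80cKO libraries, against 22.2, 26.8, 32.3, 17.7 and 27.5 CPM in Ino80WT libraries. Every Ino80WT library exceeded every Ino80cKO library, with Ino80cKO 3 the lowest of all, and the log2 fold change was -1.56 ± 0.18 (2.94-fold lower, adjusted p = 7.85e-05), the smallest adjusted p in the family.

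Prss45 had 8.97, 10.3, 7.36, 12.8 and 12.6 CPM in Ino80cKO libraries, against 24.6, 22.5, 32.0, 21.6 and 20.7 CPM in Ino80WT libraries. The groups did not overlap, and the log2 fold change was -1.23 ± 0.17 (2.34-fold lower, adjusted p = 0.000145). Prss42 had 7.64, 7.67, 6.27, 11.2 and 10.3 CPM in Ino80cKO libraries, against 11.6, 16.2, 28.6, 14.8 and 19.5 CPM in Ino80WT libraries. Here Ino80cKO 4 came close to Ino80WT 1 without passing it, and the log2 fold change was -1.07 ± 0.23 (2.11-fold lower, adjusted p = 0.00298). Prss46 had 1.29, 1.37, 1.19, 1.47 and 1.48 CPM in Ino80cKO libraries, against 2.20, 2.57, 3.21, 1.66 and 2.15 CPM in Ino80WT libraries. It was the weakest of the 5, with a log2 fold change of -0.79 ± 0.19 (1.73-fold lower, adjusted p = 0.00559) and Ino80WT 4 just above the Ino80cKO range. All 5 kept their direction and passed the test in each of the 19 alternative settings.

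Prss50 (TSP50) starts 1.44 kb beyond the end of Prss46. Its human counterpart has threonine at the place of the catalytic serine of trypsin-like proteases. Prss50 had 115, 100.3, 94.4, 116 and 127 CPM in Ino80cKO libraries, against 148, 108, 129, 106 and 108 CPM in Ino80WT libraries. The groups overlapped through most of their range, and the log2 fold change of -0.11 ± 0.11 did not pass (adjusted p = 0.433), with a 95% interval from -0.35 to 0.13. The adjacent pair can be compared within a library, where scaling plays no part. There were 11.3, 13.6, 12.6, 12.7 and 11.6 Prss46 counts per 1000 Prss50 counts in Ino80cKO libraries, against 14.9, 23.9, 24.9, 15.7 and 19.9 in Ino80WT libraries. This ratio was lower in Ino80cKO without overlap (12.4 ± 0.934 in Ino80cKO and 19.9 ± 4.58 in Ino80WT, exact two-sided permutation test, p = 0.00794, the smallest the design allows; the pair was chosen after its values were seen).

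The genes flanking the run did not pass the test. Pth1r on the left had a log2 fold change of -0.15 ± 0.16 (adjusted p = 0.466), and Tmie and Als2cl on the right had 0.39 ± 0.17 (adjusted p = 0.0713) and 0.23 ± 0.13 (adjusted p = 0.153). Myl3, also on the left, had 6 counts in Ino80cKO and 9 in Ino80WT and was below the floor.

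**Figure D2:**
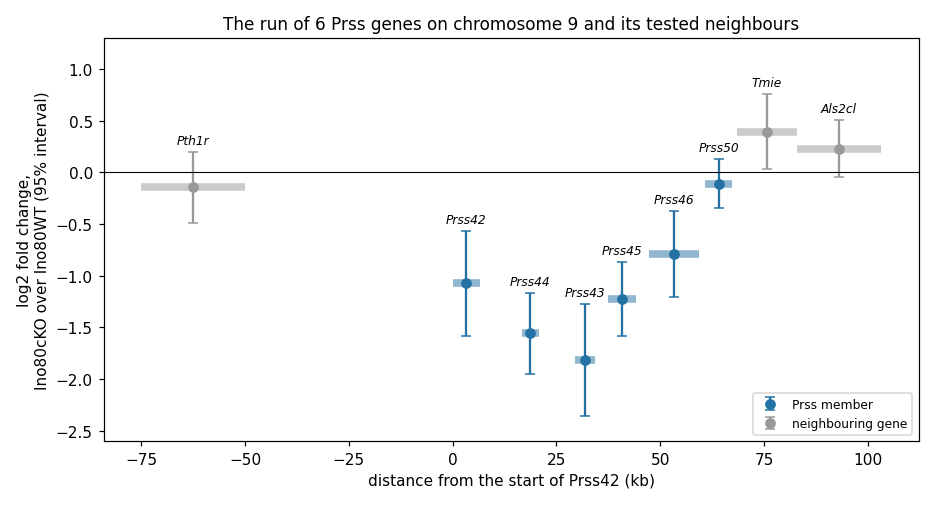
Log2 fold change (Ino80cKO over Ino80WT, points with 95% intervals) against distance in kb from the start of Prss42 for the 6 Prss genes of the chromosome 9 run and its 3 tested neighbours; thick bars span each gene. Prss43, in the middle of the run, has the lowest estimate (-1.82), and values come closer to 0 toward Prss50 (-0.11).

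The bases upstream of the annotated starts are shown for the members of this run that the RefSeq promoter table (GRCm38.p6) holds: Prss42, Prss45 and Prss46, which fell, and Prss50, which did not pass. Each is the 250 bases before an annotated start on the plus strand (for Prss42 a start inside the gene's span), and capitals mark matches on either strand to CAACTG (MYB family core), TGACGTCA (full cAMP response element), GTTGCCA (part of the X-box of RFX factors) or GGGCGG (GC box).
Prss42, chr9:110797935-110798184: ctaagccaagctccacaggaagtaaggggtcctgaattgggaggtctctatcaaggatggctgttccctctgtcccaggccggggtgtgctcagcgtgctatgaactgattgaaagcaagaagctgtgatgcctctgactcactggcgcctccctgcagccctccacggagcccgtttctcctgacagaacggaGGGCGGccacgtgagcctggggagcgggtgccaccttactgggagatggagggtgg
Prss45, chr9:110834338-110834587: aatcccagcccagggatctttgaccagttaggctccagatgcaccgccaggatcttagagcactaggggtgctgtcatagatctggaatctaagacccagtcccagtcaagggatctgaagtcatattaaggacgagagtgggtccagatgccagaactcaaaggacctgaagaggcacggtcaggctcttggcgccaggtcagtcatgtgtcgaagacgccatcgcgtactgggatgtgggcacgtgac
Prss46, chr9:110844256-110844505: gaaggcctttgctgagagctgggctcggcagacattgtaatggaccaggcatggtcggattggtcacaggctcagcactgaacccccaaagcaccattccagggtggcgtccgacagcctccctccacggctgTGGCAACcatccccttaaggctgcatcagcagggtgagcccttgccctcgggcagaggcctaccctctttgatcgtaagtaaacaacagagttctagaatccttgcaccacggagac
Prss50, chr9:110857714-110857963: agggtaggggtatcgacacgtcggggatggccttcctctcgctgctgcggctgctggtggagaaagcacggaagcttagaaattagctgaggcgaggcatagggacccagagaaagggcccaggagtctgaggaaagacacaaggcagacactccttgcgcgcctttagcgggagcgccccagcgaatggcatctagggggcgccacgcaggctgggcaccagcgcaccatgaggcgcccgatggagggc
In these stretches Prss42 had 1 GC box, whose first base lies 56 bases before the start, Prss46 had 1 X-box match (117 bases before the start, on the minus strand), and Prss45 and Prss50 had none of the 4 motifs.

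The table held 35 promoter windows for 28 members, each running from 250 bases before to 50 after a start. CAACTG was found in 11.4% of these windows, against 13.7% of all 32851 promoters in the table. TGACGTCA was found in 0 of the 35, against 1.79% of all promoters, and GTTGCCA in 2.86% against 4.38%. GGGCGG was found in 31.4%, against 35.7%. Of the 9 windows of 9 lower members, 0 held CAACTG, 1 held GTTGCCA and 3 held GGGCGG. The median number of CG dinucleotides per window was 11 for the lower members, 12 for the tested members that were not lower, 7 for all members and 7 for all promoters in the table. The tested members that were not lower had 13 windows for 6 genes, many of them alternative starts of Prss23. Several Prss23 windows also enter the GGGCGG share of the members, so windows do not count genes. These matches describe the letters of the windows.

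Prss39 (TESP1), which encodes an acrosomal protease of mouse sperm, lies on chromosome 1 (34498412 to 34503062). It had 0.705, 1.72, 1.58, 3.73 and 3.85 CPM in Ino80cKO libraries, against 3.65, 3.83, 31.2, 4.30 and 7.63 CPM in Ino80WT libraries. Ino80WT 3 was far above all other libraries, and Ino80cKO 4 and 5 overlapped Ino80WT 1 and 2. Prss39 had a log2 fold change of -2.15 ± 0.66 (4.44-fold lower, adjusted p = 0.0200), the largest fall of the family, and it came to -1.08 (adjusted p = 0.0571) without Ino80WT replicate 3 and to -2.02 (adjusted p = 0.0688) without Ino80cKO replicate 3. Prss40 (TESP2), separated from Prss39 by 33.4 kb, stayed below the floor with 25 counts over the Ino80cKO libraries and 69 over the Ino80WT libraries. Its levels were 0.0783 to 0.494 CPM in Ino80cKO libraries and 0.269 to 1.32 CPM in Ino80WT libraries, so the groups overlapped. Prss40 was called lower in 5 of the 19 alternative settings, among them the one without a filter on low counts. In Prss40, 11.3% of the 50-base stretches also occur in transcripts of Cfc1, an overlapping gene on the opposite strand, or of Prss39, so its count is uncertain.

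Prss21 encodes testisin, a protease held at the sperm surface by a lipid anchor. It had 1.21, 1.63, 1.28, 3.63 and 2.62 CPM in Ino80cKO libraries, against 2.52, 4.68, 14.96, 3.27 and 6.67 CPM in Ino80WT libraries. Ino80WT 3 again held the highest value, Ino80cKO 4 lay above Ino80WT 1 and 4, and Ino80cKO 5 lay above Ino80WT 1. The log2 fold change was -1.64 ± 0.48 (3.12-fold lower, adjusted p = 0.0153), and it came to -1.05 (adjusted p = 0.0346) without Ino80WT replicate 3 and to -0.91 (adjusted p = 0.0743) without Ino80WT 3 and Ino80cKO 3 together. Prss41 (TESSP1), on the opposite strand in the same chromosome 17 run, had an estimate closer to 0. It had 4.74, 3.35, 3.71, 4.18 and 5.63 CPM in Ino80cKO libraries, against 6.42, 5.94, 6.04, 5.51 and 5.36 CPM in Ino80WT libraries. Only Ino80cKO 5 reached into the Ino80WT range, and the log2 fold change was -0.44 ± 0.15 (1.35-fold lower, adjusted p = 0.0294), a call that was lost in 10 of the 19 alternative settings.

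Prss58 (trypsin X3, chromosome 6) was near the floor, which it met through the Ino80WT libraries, the group where it is higher. It had 0.274, 0.309, 0.198, 0.393 and 0.346 CPM in Ino80cKO libraries, against 1.01, 0.806, 1.51, 0.851 and 1.79 CPM in Ino80WT libraries. Those levels are 33 counts in all in Ino80cKO and 113 in Ino80WT, with no overlap between libraries. The log2 fold change was -1.95 ± 0.30 (3.86-fold lower, adjusted p = 0.000339). Prss38 (marapsin 2, chromosome 11) had 3.84, 4.10, 2.37, 3.88 and 4.89 CPM in Ino80cKO libraries, against 5.16, 5.19, 5.90, 4.12 and 6.26 CPM in Ino80WT libraries. Ino80cKO 5 lay above Ino80WT 4, and the log2 fold change of -0.48 ± 0.18 (1.39-fold lower) only just passed (adjusted p = 0.0492). That call was lost in 16 of the 19 alternative settings.

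Prss56 and Prss48, which lie outside these runs, also fell. Prss56, a secreted protease that controls eye size, lies on chromosome 1 (87183102 to 87188405). It had 0.861, 0.926, 0.988, 1.08 and 1.24 CPM in Ino80cKO libraries, against 2.45, 2.57, 5.71, 2.64 and 3.63 CPM in Ino80WT libraries. The groups were apart, with Ino80WT 3 the highest, and the log2 fold change was -1.74 ± 0.26 (3.35-fold lower, adjusted p = 0.000245). Prss48, on chromosome 3, had 2.08, 2.87, 2.82, 3.59 and 3.01 CPM in Ino80cKO libraries, against 4.91, 4.73, 6.94, 3.76 and 4.11 CPM in Ino80WT libraries. Ino80cKO 4 and Ino80WT 4 came close to each other without overlap, and the log2 fold change was -0.77 ± 0.19 (1.71-fold lower, adjusted p = 0.00649). Both kept their calls in all 19 alternative settings.

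**Figure D3:**
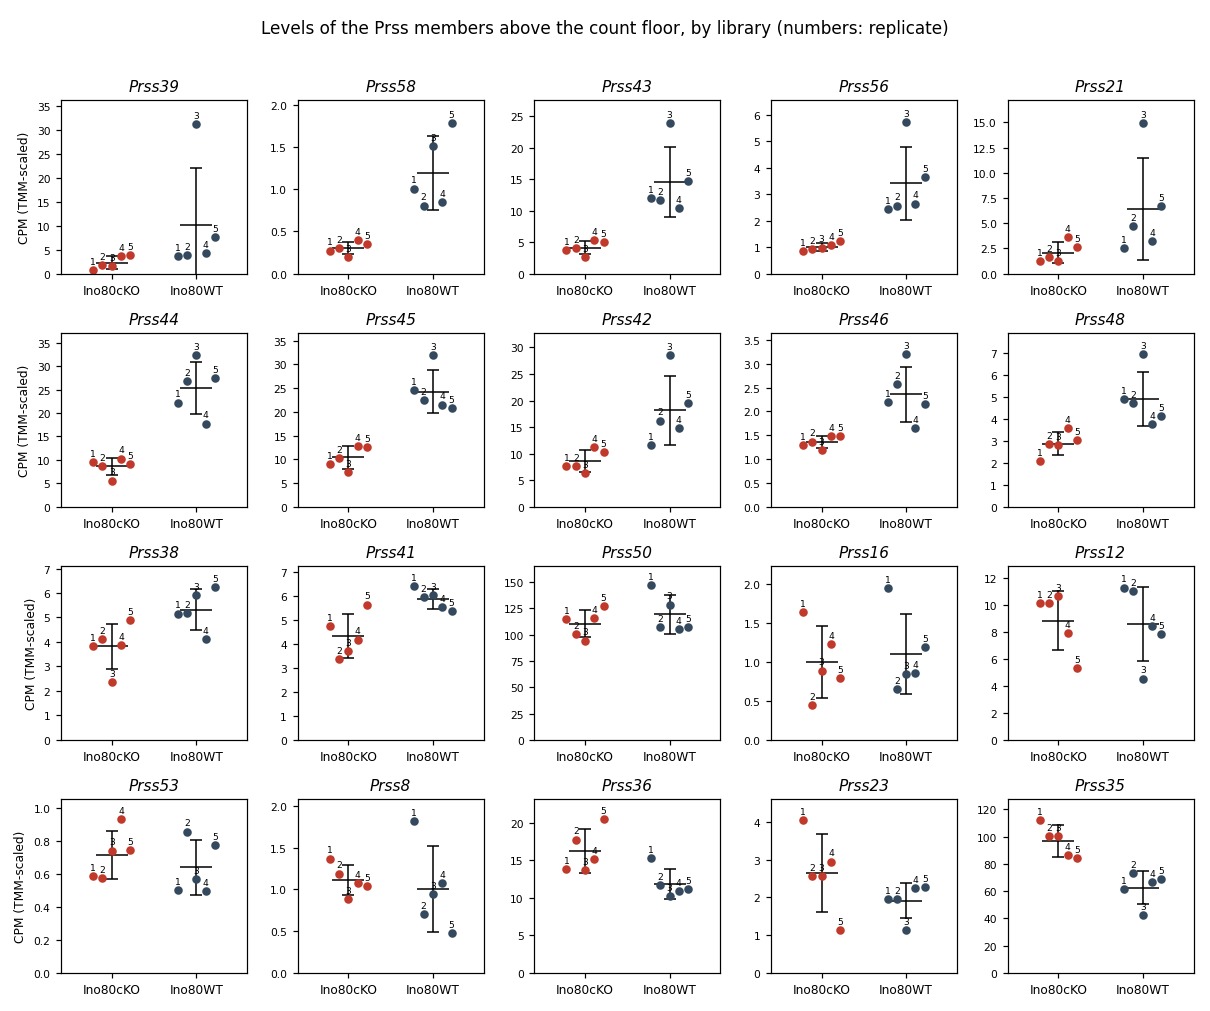
CPM of the 20 tested Prss members in each library (points, numbered by replicate), with Ino80cKO on the left and Ino80WT on the right of each panel; horizontal bars are means and error bars SD (n = 5), cut at 0, and each panel has its own linear axis. Prss43, Prss44 and Prss45 show separate groups, while the Ino80WT mean of Prss39 rests on replicate 3 at 31.2 CPM.

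The rises were of genes without a known sperm product. Prss35 encodes a secreted protease-like protein known in the mouse from the ovary around ovulation. It had 112, 101, 100.1, 86.4 and 84.3 CPM in Ino80cKO libraries, against 61.4, 73.3, 42.4, 66.6 and 69.1 CPM in Ino80WT libraries. The groups did not overlap, Ino80WT 3 was the lowest library, and the log2 fold change was 0.63 ± 0.13 (1.55-fold higher, adjusted p = 0.00266), and the call held in all 19 alternative settings. Prss36 (polyserase 2), which carries several protease domains in 1 chain, had 13.8, 17.8, 13.7, 15.2 and 20.5 CPM in Ino80cKO libraries, against 15.3, 11.7, 10.2, 10.9 and 11.1 CPM in Ino80WT libraries. Ino80WT 1 lay within the Ino80cKO range and the other 4 Ino80WT libraries below it. The log2 fold change was 0.45 ± 0.14 (1.37-fold higher, adjusted p = 0.0212), and without Ino80cKO replicate 2 it was 0.42 (adjusted p = 0.0531).

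Beside these rises stand the somatic markers, of which part also rose. Over all genes tested, 18.3% were higher and 27.6% lower. Of 9 markers of peritubular myoid and stromal cells 5 were higher and none lower, with a summed level of 1167 to 1600 CPM in Ino80cKO libraries and 994 to 1217 CPM in Ino80WT libraries. Of 7 tested Leydig cell markers 4 were higher and none lower, and the 8 listed summed to 155 to 258 CPM in Ino80cKO libraries and 97.3 to 177 CPM in Ino80WT libraries. Of 8 macrophage markers 4 were higher and none lower, at 74.4 to 117 CPM in Ino80cKO libraries and 53.9 to 79.1 CPM in Ino80WT libraries. None of 6 endothelial markers was called, at 49.2 to 86.3 CPM in Ino80cKO libraries and 44.8 to 72.9 CPM in Ino80WT libraries. In these 4 lists and the Sertoli list no marker was at 0, and Ino80WT 3 had the lowest sum, as it did for Prss35, Prss36, Prss23 and Prss12. Of 16 spermatogonia markers, which are germ cell markers, 3 were higher, 2 lower and 11 did not pass. They summed to 912 to 1066 CPM in Ino80cKO libraries and 758 to 978 CPM in Ino80WT libraries. The part of the somatic, spermatogonia or pachytene markers in the Prss results was not tested.

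The other tested members did not pass. Prss23, a secreted protease of vessels and stroma, had 1.14 to 4.03 CPM in Ino80cKO libraries and 1.13 to 2.26 CPM in Ino80WT libraries, a log2 fold change of 0.48 ± 0.29 (adjusted p = 0.187). Without Ino80cKO replicate 5, its lowest Ino80cKO library, Prss23 was called higher (log2 fold change 0.67, adjusted p = 0.0294). Of its 50-base stretches 21.2% also occur in the opposite-strand transcript Prss23os. Prss12 (motopsin), which cuts agrin at synapses, had 5.34 to 10.6 CPM in Ino80cKO libraries and 4.53 to 11.3 CPM in Ino80WT libraries, with a log2 fold change of 0.04 ± 0.24 (adjusted p = 0.897). Prss16, the thymus-specific serine protease, had 0.441 to 1.64 CPM in Ino80cKO libraries and 0.655 to 1.95 CPM in Ino80WT libraries (log2 fold change -0.10 ± 0.36). The 95% intervals of these 3 run from -0.15 to 1.11, from -0.49 to 0.57 and from -0.89 to 0.69, and these data do not separate values within them. The thymic epithelium marker Foxn1 was at 0 in all libraries, and none of the 3 tested markers of that list was called, against 45.9% of all genes tested. That list summed to 53.4 to 70.7 CPM in Ino80cKO libraries and 60.5 to 76.4 CPM in Ino80WT libraries. Most of this came from Epcam, an epithelial gene not particular to the thymus, at 54.1 ± 7.44 CPM in Ino80cKO and 61.5 ± 7.25 CPM in Ino80WT.

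Prss8 and Prss53 lie with Prss36 in a run on chromosome 7 (127885444 to 127946725). Prss8 (prostasin), a membrane-anchored activator of epithelial sodium channels, had 0.889 to 1.37 CPM in Ino80cKO libraries and 0.477 to 1.83 CPM in Ino80WT libraries (log2 fold change 0.17 ± 0.30, adjusted p = 0.663). Prss53 (polyserase 3) had 0.573 to 0.933 CPM in Ino80cKO libraries and 0.493 to 0.856 CPM in Ino80WT libraries (log2 fold change 0.16 ± 0.24, adjusted p = 0.619). Of the 50-base stretches of Prss53, 79.5% also occur in transcripts of the overlapping genes Zfp646 and Gm21974, and Prss8 overlaps the end of Kat8. The strand setting of the counting is not given, so both counts are uncertain. In the same run Kat8, a histone acetyltransferase, was lower (log2 fold change -0.60 ± 0.11, adjusted p = 0.000941), and Zfp646, Vkorc1 and Bckdk did not pass.

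The remaining 18 members stayed below the floor at day 18. Prss1, Prss2, Prss3, Prss37, Prss51, Prss52 and Prss55 had 0 counts in all 10 libraries, which over 204686277 gene counts allows up to 0.0147 CPM (counting error only). Prss51, Prss52 and Prss55 are neighbours on chromosome 14, and Prss37, like Prss55, serves sperm function in mice. Of the listed transcripts of sperm nuclear proteins made in spermatids, Prm1, Prm2 and Tnp2 were also at 0 counts. Tnp1 had 7 counts in Ino80cKO and 10 in Ino80WT and was below the floor. Of 18 listed round spermatid markers 4 passed the floor, of which 1 (Acrbp) was lower and 3 did not pass the test, beside 27.6% lower over all genes tested. The list summed to 31.8 to 48.5 CPM in Ino80cKO libraries and 61.4 to 154 CPM in Ino80WT libraries, most of it from Acrbp, at 28.9 ± 8.70 CPM in Ino80cKO and 81.1 ± 36.4 CPM in Ino80WT. For Prss1 and Prss3, 54.9% and 66.1% of the 50-base stretches occur in transcripts of other trypsin genes, so their counts are uncertain. Of the 12 pancreatic acinar markers, 1 passed the floor and Amy2a5 was at 0.

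The other 11 members, Prss40 among them, had few counts. Prss33 (43 counts in Ino80cKO and 44 in Ino80WT) and Prss32 (22 and 22, in the same order) were found in every library at about the same level in both groups. Prss30 had 5 and 5 counts and Prss57 had 9 in Ino80cKO and 11 in Ino80WT. Of the 50-base stretches of Prss32, 24.1% also occur in transcripts of Gm15947, and 38.4% of those of Prss57 occur in Fstl3, both on the opposite strand, so these counts are uncertain as well. Prss54, a member that has been placed in the mouse sperm acrosome, had 1 count in Ino80cKO and 3 in Ino80WT. Prss34 had 1 count in Ino80cKO and 3 in Ino80WT. Of the 10 listed mast cell and basophil markers, Mcpt8 and Tpsab1 were at 0. Another 3 passed the floor and none of these was called, against 45.9% of all genes tested. The list summed to 116 to 135 CPM in Ino80cKO libraries and 94.0 to 145 CPM in Ino80WT libraries. Its highest gene, Kit, which is also in the spermatogonia list, was at 87.5 ± 8.78 CPM in Ino80cKO and 79.8 ± 13.4 CPM in Ino80WT. The listed genes below the floor had 6 counts or fewer in each group. Prss22 had 3 counts in Ino80cKO and 0 in Ino80WT, Prss27 had 1 in each group, and the uterine implantation proteases Prss28 and Prss29 had 1 count each over all libraries. Outside Prss40, none of these 11 was called in any alternative setting that tested it.

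Compared per length (CPM per kb of merged GENCODE exons), the family was led by Prss50 in both groups, at 76.0 ± 9.08 CPM per kb in Ino80cKO and 82.0 ± 12.6 in Ino80WT. Prss35 came second in Ino80cKO (28.1 ± 3.36 CPM per kb, against 18.2 ± 3.50 in Ino80WT) and Prss45 second in Ino80WT (8.42 ± 1.89 CPM per kb in Ino80cKO and 19.7 ± 3.70 in Ino80WT). In the Ino80WT order, the ranges of mean ± 1 SD of neighbouring genes overlapped except between Prss50 and Prss45 and between Prss23 and Prss53. Prss42 held rank 4 in both groups, with 5.45 ± 1.31 CPM per kb in Ino80cKO and 11.4 ± 4.10 in Ino80WT. Prss16 was the lowest of the 20 in both, at 0.239 ± 0.109 CPM per kb in Ino80cKO and 0.263 ± 0.123 in Ino80WT. Prss36 and Prss12 held ranks 5 and 6 in Ino80cKO and ranks 10 and 11 in Ino80WT. Together Prss50 and Prss35 held 63.3% of all counts of the family.

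Libraries of the same label differed in a shared way. Of the 12 lower members, 9 had their highest value in Ino80WT 3, 2 in Ino80WT 5 and 1 in Ino80WT 1. Their lowest value was in Ino80cKO 3 for 7, in Ino80cKO 1 for 4 and in Ino80cKO 2 for 1. Ino80WT 3 and Ino80cKO 3 were also the extremes of the pachytene list. Without these 2 libraries 8 members were still lower and 2 higher, and the median log2 fold change of the 20 members was -0.47. The coefficient of variation of the lower members ran from 9.22% to 60.5% (median 23.2%) in Ino80cKO and from 7.25% to 117% (median 30.5%) in Ino80WT, with Prss39 the most variable in both groups.

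**Figure D4:**
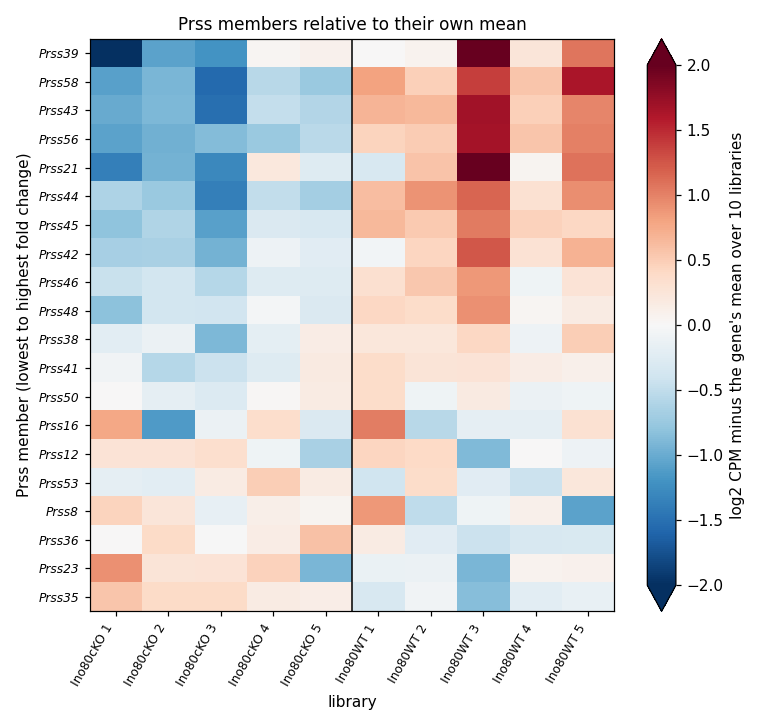
Log2 CPM of the 20 tested Prss members in each library minus the gene's mean over the 10 libraries (colour scale from -2 to 2; Ino80cKO left of the line, Ino80WT right; genes ordered by fold change). Ino80WT 3 is high for most members at the top and low for Prss35 and Prss23 at the bottom, and Ino80cKO 3 is low for most at the top.

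Genes that work with these proteases were read from lists that hold no Prss member. In the list for ADAM3 processing and sperm migration into the oviduct, 13 of 20 tested genes fell, 3 rose and 4 missed the threshold, beside 27.6% lower and 18.3% higher over all genes tested; the list's median was -1.23 on the log2 scale. Tmprss12, a membrane serine protease of this pathway, was at 8.89 ± 2.43 CPM in Ino80cKO and 25.4 ± 2.91 CPM in Ino80WT (log2 fold change -1.51, adjusted p = 6.97e-05). Lypd4 was 31.0 ± 7.01 CPM in Ino80cKO and 99.3 ± 27.9 CPM in Ino80WT (adjusted p = 9.56e-05). Adam5, of the same sperm membrane protein family as ADAM3, was 128 ± 34.2 CPM in Ino80cKO and 466 ± 155 CPM in Ino80WT (adjusted p = 0.00012). The chaperone Clgn was 244 ± 48.0 CPM in Ino80cKO and 589 ± 127 CPM in Ino80WT (adjusted p = 0.000123). Several genes of this list, Clgn among them, are also in the pachytene spermatocyte list, so the falls of these lists are not separate results. The Prss members tied to this pathway, Prss37 and Prss55, were at 0 counts.

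Of 22 tested trypsin-like proteases with other symbols, 3 were lower, 5 higher and 14 did not pass, with a median log2 fold change of 0.18, beside 27.6% lower and 18.3% higher over all genes tested. Besides Tmprss12, the lower ones were Acr, which encodes the acrosomal protease acrosin (13.8 ± 2.82 CPM in Ino80cKO and 38.5 ± 13.7 CPM in Ino80WT, adjusted p = 0.000247), and the coagulation factor gene F7 (0.350 ± 0.085 CPM in Ino80cKO and 1.04 ± 0.197 CPM in Ino80WT, adjusted p = 0.000321). Of the higher ones, the complement protease gene C1ra was at 12.6 ± 2.34 CPM in Ino80cKO and 7.84 ± 0.835 CPM in Ino80WT (adjusted p = 0.00178). Of 23 tested protease inhibitors, 8 were lower, 2 higher and 13 did not pass, with a median of 0.15, a share of lower genes near the 27.6% of all genes tested. Wfdc15a, of the WAP domain inhibitors, was at 19.9 ± 3.14 CPM in Ino80cKO and 44.6 ± 3.76 CPM in Ino80WT (adjusted p = 3.91e-05). Pebp1 was at 441 ± 24.3 CPM in Ino80cKO and 686 ± 73.3 CPM in Ino80WT (adjusted p = 0.000133). Spink2, the acrosin inhibitor of germ cells, was at 32.9 ± 8.45 CPM in Ino80cKO and 109 ± 27.5 CPM in Ino80WT (log2 fold change -1.73, adjusted p = 7.85e-05), and Acrbp, which binds proacrosin, at 28.9 ± 8.70 CPM in Ino80cKO and 81.1 ± 36.4 CPM in Ino80WT (adjusted p = 0.00114).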

How the data were processed

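The authors deposited 1 table of raw read counts by gene symbol for each library, with no normalization. TopHat2, HTSeq, DESeq2 and the mm10 build are named, without versions or roles, per the submitters' processing notes. Annotation and strand setting: not given in the sources used here. Rows that name no gene held 35.5% to 44.0% of reads and entered neither library sizes nor tests. Counts were fitted with edgeR 4.0.16 in R 4.3.3: filterByExpr on genotype (minimum count 10, minimum total 15), TMM factors, and a robust quasi-likelihood fit with genotype as the only term. An adjusted p below 0.05 was a call. On simulated data the fit called 77.1% of genes with a true log2 change of 1 and 33.3% of those with 0.5. Of its calls there 3.6% were false, so changes near 0.5 can often be missed. Pairs of libraries differed by a chi-square of at least 9.46 for each degree of freedom, beyond sampling noise. Positions and promoters came from RefSeq (GRCm38.p6, the assembly of mm10), where all 38 members matched, and exon lengths and transcripts from GENCODE M21. Protein sequences were not used here. All members were named, and up to 4 genes of each list of related proteases, inhibitors and ADAM3 genes by smallest adjusted p. From marker lists, genes at 0 counts or with the largest part of a list's level were named, and Tnp1 beside Prm1, Prm2 and Tnp2. Members, lists and tests were chosen with earlier results of these data known. Alternatives were other normalizations, filters and tests (DESeq2 1.42.0, limma 3.58.1), a replicate block and left-out libraries.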

Additional observations from a re-analysis of the deposited data

Results flagged for a closer look

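Among the 40 groups of 5 libraries formed by the 20 tested members, 2 held a library far from the rest, both times Ino80WT 3; by chance about 1 in 20 such groups would. Prss39 was at 31.2 CPM in Ino80WT 3, with the other Ino80WT libraries at 3.65 to 7.63 CPM. Prss23 was at 1.13 CPM in Ino80WT 3, with the others at 1.95 to 2.26 CPM.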

How the results depend on the processing

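Of 19 alternative settings, each gave 8 to 13 lower members against 12 in the fit reported. Prss35, Prss42, Prss43, Prss44, Prss45, Prss46, Prss48, Prss56 and Prss58 kept their calls wherever they were tested; the stricter filter removed Prss58. Leaving out 1 library at a time gave 9 to 13 lower and 1 to 3 higher members; the count of 1 higher member came without Ino80cKO replicate 2 and that of 3 without Ino80cKO replicate 5, where Prss23 was called. Prss39 lost its call without any filter, without Ino80WT 3, without Ino80cKO 3 and without both, and Prss40 was called lower without any filter and without Ino80cKO 4, Ino80cKO 5, Ino80WT 1, or Ino80WT 1 and 2. With no filter 31 members entered the test, since every member with a count was then kept. Scaling by library totals moved the median of all genes to 0.19 and that of the 20 members to -0.44, with 10 lower and 2 higher, and gave 2937 lower and 5484 higher genes overall. Members without a call changed sign: Prss12 to -0.0119, -0.0122, -0.00818 and -0.122 without Ino80cKO 1, 2 or 3 or Ino80WT 3 (0.18 at the highest with 1 library left out), and -0.172 without Ino80WT 3 and Ino80cKO 3; Prss16 to 0.0796 by library totals, 0.0924 without Ino80cKO 2, 0.216 without Ino80WT 1 (-0.371 at the lowest with 1 library left out) and 0.129 without Ino80WT 1 and 2; Prss50 to 0.0678 by library totals, 0.000283 without Ino80WT 1 (-0.165 at the lowest with 1 library left out) and 0.00905 without Ino80WT 1 and 2; and Prss8 to -0.00152 without Ino80WT 5 (0.482 at the highest with 1 library left out). The cause of these shifts was not tested. With the replicate number as a block 10 members were lower and 2 higher, and Prss38 and Prss41 lost their calls (adjusted p = 0.0757 and 0.061). Same-numbered libraries deviated from their group means with r from -0.47 to 0.196. These values gave no sign of pairing by number. They cannot exclude it, because differences shared by many genes among libraries of a label can mask it. Of the 18 members below the floor, 7 had no count, and few counts limit the others; for Prss40 the call depended on the filter and on single libraries.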
